A study of Mus musculus with 15 samples.

Results

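In vitro activated T cells were compared with resting T cells, both from mice without p53. The 6 arrays, 3 resting and 3 activated, were chosen by their sample titles from the 15 of the series, and the other 9 arrays, of T cell lymphomas, were left out of the fit. Both groups were taken from C57BL/6 mice with the p53 KO genotype at 5 weeks of age, so neither holds a p53-competent control. The resting cells are described as normal T cells at rest, and the activated cells as normal T cells activated in vitro, with no agent, dose or duration given. Cells were sorted from liver or spleen, with the organ and the sorting markers not stated per sample. The growth protocol names injections every 2 weeks of PBS or of a heat-killed Streptococcus pneumoniae, and the labels leave unsaid whether these mice were among those injected. Because 50 ng of total RNA was amplified per sample and nothing says that replicates came from separate animals or cultures, the p-values measure the spread between these samples, which may be technical.

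A resting T cell is small, does not divide and keeps its metabolism low. Engagement of the T cell receptor (TCR) with costimulation first induces immediate early transcription factors within a short time, then receptors for growth cytokines such as interleukin 2 (IL-2), and later growth, aerobic glycolysis, DNA synthesis and division. Hypoxia-inducible factor 1 (HIF-1), which both low oxygen and TCR signalling can stabilise, drives many genes of glycolysis, and p53 normally restrains dividing cells through its target genes.

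Each value is a signal, the brightness that MAS5 software derives for the probes of 1 transcript, given below on the log2 scale with a floor at 5, which is 32 on the linear scale. A gene was called higher or lower at a limma Benjamini-Hochberg adjusted p under 0.05 together with a change of at least 2-fold, and a difference is always activated minus resting, with its standard error (SE, n = 3 and 3). The 2% trimmed mean of the linear signal was 500 on each array. The median linear signal was 91.7 to 99.2 on the resting and 110.5 to 118.3 on the activated arrays. Pearson correlations between arrays, across genes, were 0.968 to 0.976 among resting, 0.970 to 0.974 among activated and 0.903 to 0.922 between the groups. The actin ratio of 3′ to 5′ signal was 1.26 to 1.5 on resting and 1.49 to 1.54 on activated arrays, the same ratio for Gapdh was 1.86 to 2.21 and 1.26 to 1.36, and the mean log2 signal of the poly-A RNAs added as controls was 9.71 to 12.03 and 9.30 to 9.64. The part of RNA quality and input in the results was not tested.

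Activation went with a broad change. Of 11902 genes tested, 1510 were called (12.7%), of which 1006 were higher (8.45%) and 504 lower (4.23%) in activated cells. Increases reached further than decreases: 326 genes were at least 4-fold and 39 at least 16-fold higher, against 66 and 2 that were lower by as much. The median difference of all genes tested was 0.02. The groups did not overlap in 5544 of the 11902 genes, so separation of the arrays was common. After quantile normalisation the split was 807 higher and 620 lower, and in a fit that also held the 9 lymphoma arrays (the 15-array fit) 295 genes were higher and 102 lower. That fit leaves each difference between activated and resting cells as it was, and estimates the spread from the lymphoma arrays too. Calls lost in it therefore failed the adjusted p and not the 2-fold limit. No call in the cytokine, homing, cytotoxic, NK receptor, Ly6, macrophage, platelet or mast cell lists was kept in that fit, and the naive, JAK and STAT, death pathway and stromal lists kept 1 each. Other probe sets of the called genes, 922 in number, moved in the same direction in 96.2% of cases. In bulk samples, fewer cells of a type and less RNA per cell cannot be told apart.

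The lists below were read against those shares. Among them, division genes, glycolysis and the hypoxia response had the highest shares of members called higher, and among the pathway lists ribosome biogenesis, immediate early and interferon genes had the highest shares called lower.

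**Figure D1:**
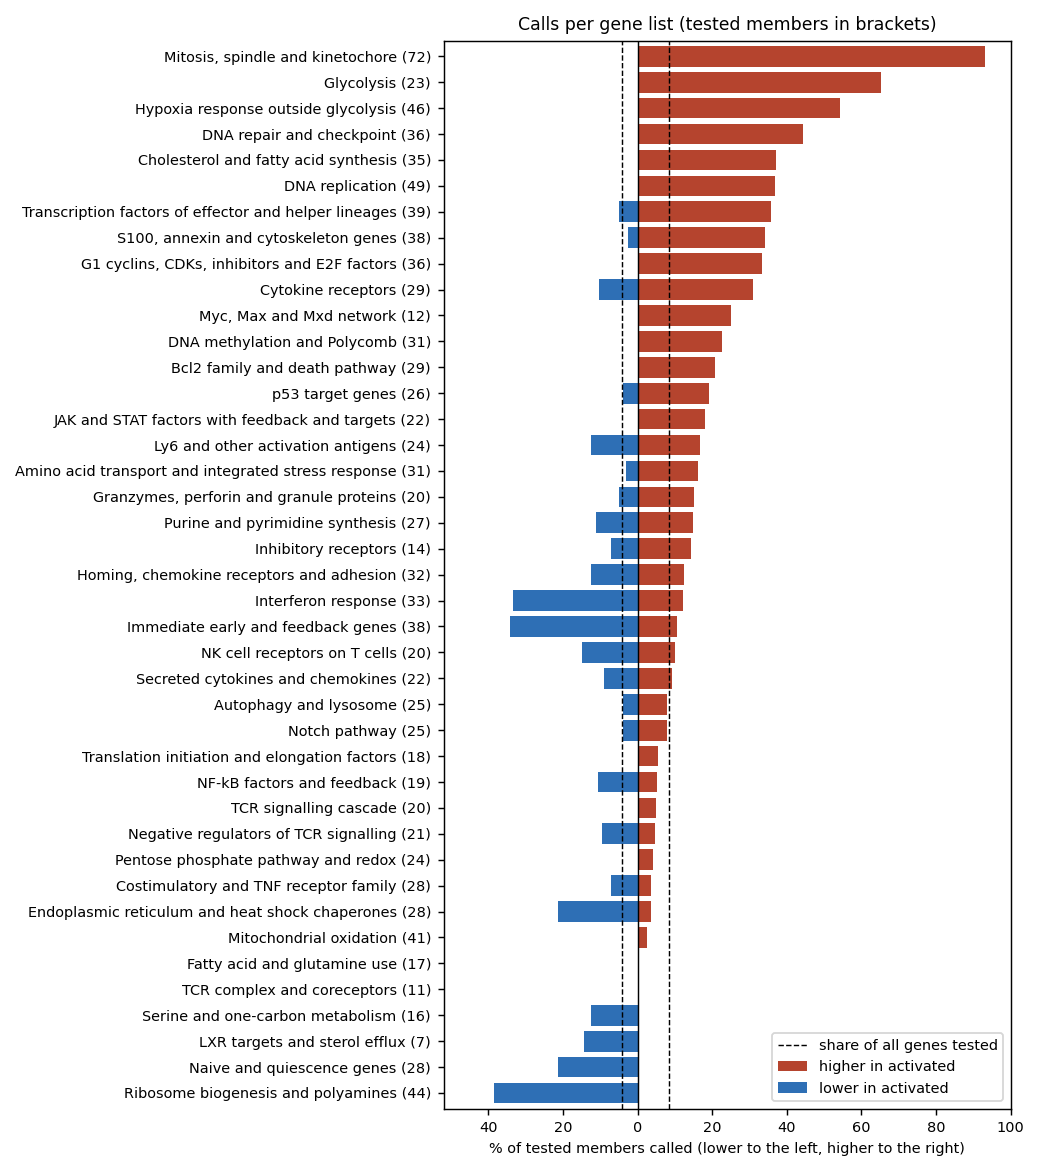
Share of tested members of each of 41 gene lists that were called higher (to the right) or lower (to the left) in activated than in resting cells, with the number tested in brackets and dashed lines at the share of all genes tested, 8.45% higher and 4.23% lower. Mitosis genes stand at 93.1% higher, glycolysis genes at 65.2%, and ribosome biogenesis genes at 38.6% lower.

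The TCR machinery itself changed little. None of the 11 genes of the TCR complex and its coreceptors was called, and their differences ran from -0.53 to 0.45, with 3 past the adjusted p alone and 9 below 0. Cd4 signal was 11.75, 11.68 and 11.37 on the resting and 11.14, 11.08 and 11.01 on the activated arrays (-0.53 ± 0.12, adjusted p = 0.0163). For Cd8a it was 12.96, 13.31 and 13.06, then 13.71, 13.48 and 13.49 (0.45 ± 0.12, adjusted p = 0.0339), but with the mean of its probe sets the Cd8a difference was -0.13. Both coreceptors thus separated the groups by less than 2-fold, and the direction for Cd8a depended on the probe sets. Of 20 genes of the signalling cascade below the receptor, 1 rose: Themis, an adaptor of TCR signalling in developing T cells, went from 11.71, 11.81 and 11.87 to 12.85, 12.93 and 12.82 (2.09-fold, adjusted p = 0.000377). Among 21 brakes on the receptor, the ubiquitin ligase Cblb rose 3.10-fold (1.63 ± 0.12), while the phosphatase Ptpn6 (-1.24 ± 0.10) and the membrane adaptor Sit1 (-1.22 ± 0.16) fell. Ptpn6 was not called with the mean of its probe sets (-0.72).

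Immediate early genes, which code for the transcription factors and feedback phosphatases that answer a fresh stimulus, were called lower more often than higher in the activated cells. Of 38 tested, 13 fell (34.2%), 4 rose (10.5%) and 21 were not called, with a median difference of -0.67. Egr1, a zinc finger factor, was at 12.32, 12.08 and 12.23 in resting and 9.56, 9.91 and 9.56 in activated cells (-2.53 ± 0.13, 5.79-fold lower, adjusted p = 0.000104). Its relatives Egr2 (-2.80 ± 0.31) and Egr3 (-3.12 ± 0.41) fell further, Egr3 from 10.59, 10.37 and 10.44 to 7.39, 8.19 and 6.48. The nuclear receptor Nr4a1, widely used as a mark of recent TCR signalling, went from 10, 10.08 and 10.38 to 8.40, 8.44 and 8.07 (3.61-fold lower). In all 4 genes the lowest resting array lay above the highest activated one. Groups were apart, in either direction, in 5544 of all 11902 genes tested.

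Fos and Jun, the subunits of AP-1, were uneven among the resting arrays. Fos signal was 8.35, 12.45 and 12.04 in resting cells and 5.92, 6.41 and at the floor in activated cells (-5.17 ± 1.08, at least 36.0-fold lower, adjusted p = 0.0133). Jun was at 8.75, 10.78 and 10.79, then 7.90, 8.40 and 8.40 (-1.87 ± 0.55, adjusted p = 0.0443). Resting replicate 1 was thus the low resting array for both. Without it the differences were -6.47 for Fos and -2.55 for Jun. Fos was not called when resting replicate 3 (adjusted p = 0.052) or activated replicate 3 (0.0553) was left out, and Jun was not called without any 1 of the other 5 arrays (adjusted p from 0.103 to 0.134). Macrophage markers were also lower on resting replicate 1 than on the other resting arrays (values below), and their part in the Fos and Jun values was not tested.

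Of the early genes that rose, Maff, a small Maf protein, was at or near the floor in resting cells (highest 5.32) and at 8.26, 8.44 and 8.37 in activated cells (at least 9.53-fold higher, adjusted p = 0.000223). The phosphatase Dusp4 rose 3.04-fold, the survival gene Ier3 2.60-fold and the AP-1 subunit Fosl2 2.35-fold. Of 19 NF-kB factors and feedback genes, Bcl3 rose (1.27 ± 0.20) and Nfkbid (-1.66 ± 0.19) and Relb (-1.11 ± 0.24, not called without resting replicate 2 or activated replicate 2) fell. In the 15-array fit 0 early genes were called lower and 1 higher.

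**Figure D2:**
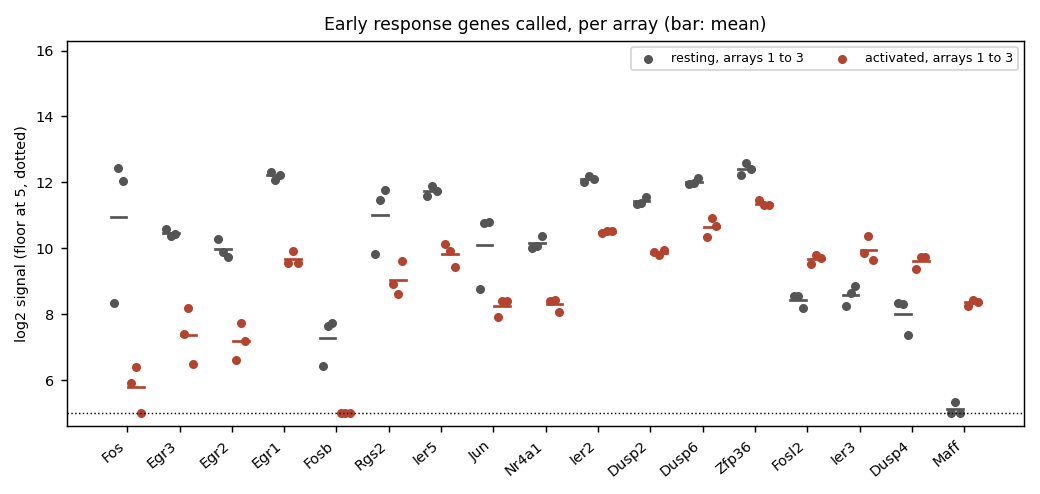
Log2 signal of the 17 early response genes that were called, ordered by their difference, with 1 point per array (grey, resting; red, activated), a bar at the group mean and a dotted line at the floor. Fos, Jun and Rgs2 show 1 low resting array, and Maff, Dusp4, Ier3 and Fosl2 at the right are the 4 that rose.

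The promoter of Fos is shown because this gene fell furthest and carries the element to which cAMP-response factors are known to bind. The capitals mark TGACG on either strand, the core of the longer element TGACGTCA, in RefSeq's window of 250 bases before to 50 after the start (GRCm38.p6, plus strand, chr12:85473640-85473939).
Fos: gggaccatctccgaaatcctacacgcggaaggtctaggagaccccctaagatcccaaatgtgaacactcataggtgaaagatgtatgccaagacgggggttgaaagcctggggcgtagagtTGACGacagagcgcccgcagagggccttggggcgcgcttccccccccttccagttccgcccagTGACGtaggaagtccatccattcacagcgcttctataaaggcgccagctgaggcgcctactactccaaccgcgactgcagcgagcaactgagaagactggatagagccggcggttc
Of the windows of called early genes, 10 of 19 (52.6%) held TGACG, against 57.5% of the windows of all members and 20.8% of all 32851 promoter windows. The full TGACGTCA, which contains the core on both strands, was in 5.26%, 10% and 1.79% of them. A match describes the letters only.

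Of 29 cytokine receptor genes 9 rose (31.0%) and 3 fell (10.3%). Il12rb2, the inducible chain of the IL-12 receptor, had 1 resting array at the floor and the others at 5.89 and 5.93, and stood at 9.86, 10.63 and 10.16 in activated cells (at least 24.4-fold higher, adjusted p = 0.000372). Il2ra, the high-affinity chain of the IL-2 receptor (CD25), went from 9.13, 7.92 and 7.55 to 10.86, 10.98 and 10.91 (6.58-fold, adjusted p = 0.0034), and Il2rb, the signalling chain, from 11.76, 11.43 and 11.09 to 13.05, 13.24 and 13.15 (3.29-fold). The groups did not overlap in any of the 3, which also held for 5544 of all 11902 genes tested. Il10ra rose 3.48-fold, and it was not called with the mean of its probe sets (0.93). Il1rl2 (-1.90 ± 0.26) and Il6ra (-1.23 ± 0.19) fell, and the IL-7 receptor Il7r, which naive cells need to survive, was at -0.61 ± 0.10, under 2-fold. Of the receptor calls, 1 higher and 1 lower were left in the 15-array fit.

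Downstream of these receptors, 4 of 22 JAK and STAT factors and targets rose and 0 fell: the feedback inhibitors Socs2 (3.47-fold) and Socs1 (2.07-fold), the kinase Jak3 (2.84-fold) and the survival kinase Pim2 (2.47-fold). Socs2 was not called with the mean of its probe sets, nor Socs1 after quantile normalisation or without activated replicate 1.

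Of 22 secreted cytokines and chemokines, 2 rose (9.09%) and 2 fell (9.09%). Ebi3, a subunit of IL-27 and IL-35, went from 6.55, 5.99 and 6.73 to 8.43, 9.15 and 8.98 (5.4-fold), and the chemokine Ccl22 rose 3.18-fold. The chemokine Xcl1 (-1.97 ± 0.34) and Il21 (-1.88 ± 0.27) fell. Ifng, the main effector cytokine of Th1 and CD8 T cells, was at 8.45, 8.87 and 8.61 in resting and 7.17, 8.14 and 8.77 in activated cells, which overlapped (adjusted p = 0.295). The Il2 probe set was too dim to be tested (5.86 to 6.64 resting, 6.01 to 7.68 activated), and Csf2 was at the floor on each of the 6 arrays.

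Surface receptors of costimulation and inhibition split by gene. The costimulator Icos rose from 11.43, 11.64 and 11.55 to 12.61, 12.74 and 12.79 (2.26-fold, adjusted p = 0.000414). Ctla4, the inhibitory receptor that competes with Cd28, went from 10.19, 9.47 and 9.63 to 13.81, 13.53 and 13.78 (15.4-fold, adjusted p = 0.000104), and Lag3 from 7.54, 6.35 and 6.59 to 9.47, 10.27 and 9.64 (7.81-fold). Cd69, the receptor that marks the first hours of activation, was instead lower, at 11.54, 11.14 and 11.25 against 9.78, 9.66 and 9.59 (3.10-fold, adjusted p = 0.000444). The ectoenzyme Nt5e (CD73) fell by 1.89 ± 0.11. In these 5 genes no array of one group reached the range of the other, as in 5544 of all 11902 genes tested. Pdcd1, which encodes PD-1, differed by 0.26 ± 0.25 (adjusted p = 0.474), and Cd44 (0.75 ± 0.09), Tnfrsf4 (0.65 ± 0.13) and Tnfrsf18 (0.86 ± 0.15) passed the adjusted p but not 2-fold. Tnfsf11 fell by 1.06 ± 0.25, a call lost without any 1 of 5 arrays (lowest and highest adjusted p 0.0362, with a difference of -0.81, and 0.0707), without a filter and with the mean of probe sets. In all, 1 of 28 costimulators rose and 2 fell, and 2 of 14 inhibitory receptors rose and 1 fell.

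Transcription factors of effector and helper lineages rose in 14 of 39 cases (35.9%) and fell in 2. Bhlhe40, a helix-loop-helix repressor of effector cells, was at 7.23, 6.54 and the floor in resting and 10.30, 10.74 and 10.29 in activated cells (at least 18.2-fold, adjusted p = 0.00256). Batf3 (at least 11.5-fold), Zbtb32 (at least 8.50-fold) and Nfil3 (at least 7.53-fold) also rose from arrays at or near the floor. The interferon regulatory factors Irf4, which TCR signalling induces in proportion to its strength, and Irf8 rose 3.55-fold and 4.35-fold, Irf4 from 8.39, 8.03 and 7.70 to 9.77, 10.01 and 9.82. The master factor of Th1 cells, Tbx21, went from 9.48, 9.63 and 8.91 to 10.80, 10.72 and 10.92 (2.78-fold, adjusted p = 0.00275), and that of Th2 cells, Gata3, from 7.00, 7.99 and 7.82 to 8.56, 9.07 and 9.12 (2.49-fold, adjusted p = 0.0219). Prdm1 rose 2.32-fold. Factors tied to more than 1 helper fate were thus higher in the same samples, while Foxp3, the factor of regulatory T cells, ranged from 6.50 to 8.65 in resting and 6.15 to 7.44 in activated cells without a call. Tox (-1.04 ± 0.18) and Sox4 (-1.11 ± 0.11) fell. The Gata3 call was lost without activated replicate 2 or 3, Tox without resting replicate 3, activated replicate 2 or activated replicate 3, and Sox4 with the mean of probe sets (-0.20). The 15-array fit called 3 members higher and 0 lower.

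Glycolysis and the hypoxia response held the largest increases of all. Ak4, a mitochondrial adenylate kinase and HIF-1 target, was at the floor on all 3 resting arrays and at 11.38, 11.70 and 11.39 in activated cells (at least 89.9-fold higher, adjusted p = 2.05e-05). Slc16a3, which exports lactate, went from 6.74, 5.93 and 6.57 to 12.32, 12.10 and 12.40 (58.1-fold, adjusted p = 6.88e-05), and Bnip3, a mitophagy receptor, from 8.59, 8.97 and 8.64 to 13.79, 13.90 and 13.86 (34.8-fold, adjusted p = 2.05e-05). The spread within each group was small against these steps, with SEs of 0.18, 0.23 and 0.12.

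**Figure D3:**
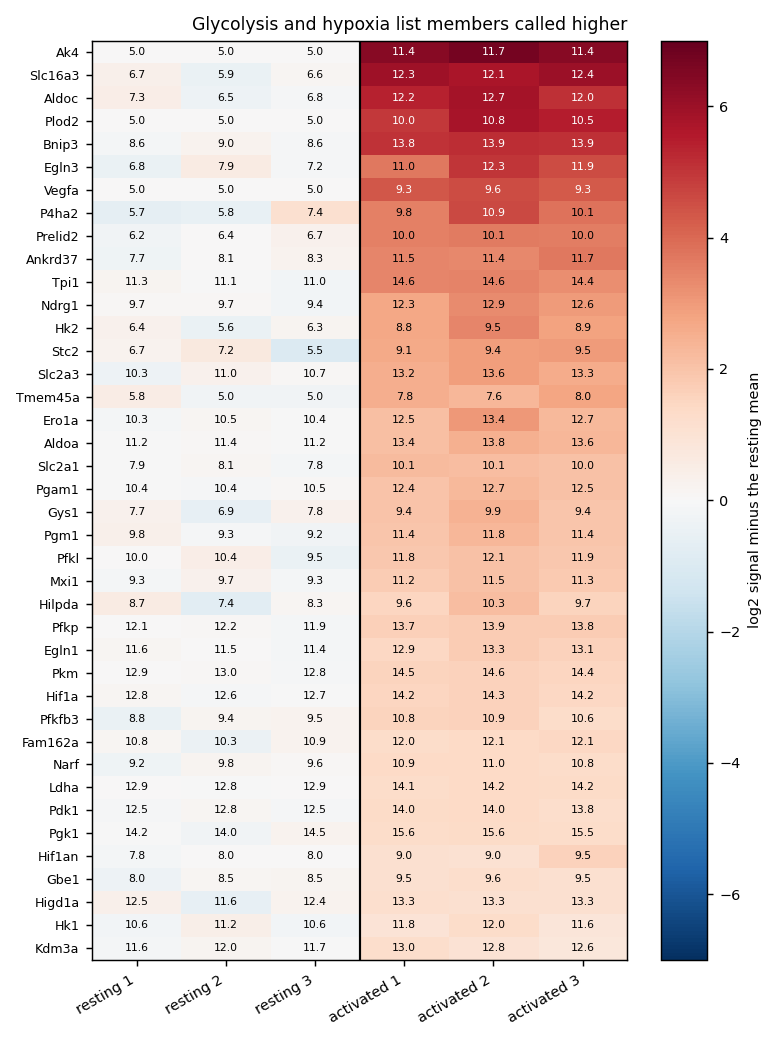
Log2 signal of the 40 members of the glycolysis and hypoxia lists that were called higher, 1 row per gene and 1 column per array, printed in each cell and coloured by the distance from the gene's resting mean (red, higher). Ak4, Plod2 and Vegfa are at the floor on the resting arrays, and each of the 3 activated columns is red throughout.

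Along the glycolytic pathway, 15 of 23 genes tested rose (65.2%), none fell, and the median difference was 1.51. The glucose transporters Slc2a1 (7.87, 8.06 and 7.77, then 10.10, 10.05 and 9.97) and Slc2a3 (10.30, 10.98 and 10.73, then 13.20, 13.61 and 13.29) rose 4.40-fold and 6.48-fold. Tpi1, triose phosphate isomerase, rose 10.4-fold (3.38 ± 0.12, adjusted p = 5.94e-05). Isozymes of the same step moved unequally. Hexokinase 2, Hk2, went from 6.38, 5.59 and 6.27 to 8.78, 9.52 and 8.88 (2.98 ± 0.32), and Hk1 from 10.58, 11.16 and 10.56 to 11.75, 12.03 and 11.64 (1.04 ± 0.19, not called without resting replicate 1, resting replicate 3 or activated replicate 2, at 0.93 to 0.95). The aldolase Aldoc, best known from brain, rose 43.4-fold, from 7.33, 6.50 and 6.82 to 12.24, 12.72 and 12, while the common form Aldoa rose 4.95-fold. Lactate dehydrogenase A, Ldha, which favours lactate formation, rose 2.51-fold (12.89, 12.83 and 12.89, then 14.13, 14.25 and 14.22), whereas Ldhb differed by -0.29 ± 0.13 (adjusted p = 0.146). The difference between isozymes was not itself tested.

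Outside glycolysis, 25 of 46 genes of the hypoxia response rose (54.3%), none fell, and the median difference was 1.15. Hif1a, the oxygen-regulated subunit of HIF-1, rose 2.90-fold (12.84, 12.61 and 12.67, then 14.20, 14.34 and 14.18). Egln3, a prolyl hydroxylase that marks HIF-1 for destruction and is itself a HIF target, rose 21.4-fold (6.83, 7.88 and 7.22, then 11.01, 12.31 and 11.89). Vegfa, the angiogenic growth factor, was at the floor on all 3 resting arrays and at 9.34, 9.56 and 9.32 in activated cells (at least 21.2-fold, adjusted p = 8.84e-05). Pdk1, the kinase that keeps pyruvate out of mitochondria, rose 2.5-fold (1.32 ± 0.10). Plod2, which modifies collagen, was at the floor in resting cells and at 9.97, 10.76 and 10.49 in activated cells (at least 42.4-fold). Mgarp, a mitochondrial transport protein that the lists did not hold, was among the 12 largest increases (28.9-fold). Fibroblast and stromal markers, which Plod2-expressing cells can carry, summed to 651 to 843 on resting and 2012 to 2806 on activated arrays on the linear scale, and their part in the Plod2 value was not tested. In the 15-array fit 11 glycolysis and 17 hypoxia members were still called higher. With the mean of its probe sets the Ak4 difference was 3.09.

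The promoters of 3 of these genes are shown, the members with the largest differences whose window holds the core to which HIF is known to bind. Capitals mark ACGTG or GCGTG on either strand (reversed, CACGT or CACGC), in RefSeq windows of GRCm38.p6, all on the plus strand: chr4:101419039-101419338 for Ak4, chr11:120948817-120949116 for Slc16a3 and chr11:78322823-78323122 for Aldoc.
Ak4: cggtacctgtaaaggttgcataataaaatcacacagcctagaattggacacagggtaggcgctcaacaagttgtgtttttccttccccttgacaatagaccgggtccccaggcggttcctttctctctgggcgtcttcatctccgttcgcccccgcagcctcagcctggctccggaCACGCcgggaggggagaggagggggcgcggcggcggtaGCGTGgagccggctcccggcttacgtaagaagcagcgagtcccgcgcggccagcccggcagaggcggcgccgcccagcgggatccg
Slc16a3: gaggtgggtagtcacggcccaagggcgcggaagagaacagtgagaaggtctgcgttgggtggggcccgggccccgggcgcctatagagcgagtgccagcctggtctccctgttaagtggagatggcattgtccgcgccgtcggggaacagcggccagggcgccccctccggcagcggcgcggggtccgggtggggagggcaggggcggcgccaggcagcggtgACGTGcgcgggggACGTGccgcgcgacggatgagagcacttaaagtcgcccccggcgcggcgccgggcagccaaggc
Aldoc: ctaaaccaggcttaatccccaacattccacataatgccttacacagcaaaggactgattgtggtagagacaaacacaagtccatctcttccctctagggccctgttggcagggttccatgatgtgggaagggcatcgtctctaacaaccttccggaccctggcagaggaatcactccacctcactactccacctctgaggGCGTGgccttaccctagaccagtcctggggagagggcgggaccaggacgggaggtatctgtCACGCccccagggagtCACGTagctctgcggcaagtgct
Slc16a3 carries ACGTG at 2 places close before the start, Ak4 carries GCGTG at 2 and Aldoc has 3 matches on both sides of the start. Either core was in 24 of 32 windows of called hypoxia members (75.0%) and 17 of 21 of called glycolysis members (81.0%). Over all members, called or not, it was in 82.7% and 80.0%, and over all promoter windows in 43.8%. ACGTG alone was in 46.9% and 61.9% of the called members' windows and 19.6% of all. The E-box CACGTG, which contains ACGTG on both strands, was in 9.38%, 9.52% and 7.15%. Over all hypoxia and glycolysis members ACGTG was in 55.8% and 54.3%, and the E-box in 15.4% and 14.3%. RefSeq windows were matched for 22 of the 25 and 14 of the 15 called genes.

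Few genes of mitochondrial oxidation were called. Of 41 genes of the tricarboxylic acid cycle and respiratory chain, 1 was called: Pcx, pyruvate carboxylase, with 2 resting arrays at the floor (at least 3.72-fold higher, adjusted p = 0.0183, lost without any 1 of 4 arrays). The other 40 ran from -0.90 to 0.67, with 33 of the 41 below 0 and a median of -0.22. None of 17 genes of fatty acid and glutamine use was called, with 8 past the adjusted p alone (differences from -0.75 to 0.80). Cpt1a, which lets fatty acids into mitochondria, was at 10.60, 10.45 and 10.56, then 10.73, 11.04 and 11. Of 24 pentose phosphate and redox genes only Txn1, thioredoxin, rose (2.11-fold), a call lost without resting replicate 2, without activated replicate 3 and with the mean of probe sets.

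Of 35 genes of cholesterol and fatty acid synthesis 13 rose (37.1%), 0 fell and 22 were not called, with a median of 0.86. The desaturase Scd2 went from 11.28, 11.53 and 11.05 to 14.22, 14.50 and 14.20 (8.11-fold, adjusted p = 0.000102). Fads2, which desaturates polyunsaturated fatty acids, rose 5.71-fold, from 6.22, 5.94 and 5.56 to 7.94, 9.01 and 8.30. Scd1 was at 8.03, 8.18 and 7.86, then 9.15, 11.49 and 9.79, with activated replicate 2 far above the others (4.35-fold, adjusted p = 0.0308, lost without any 1 of the 3 resting arrays or activated replicate 3, and 1.45 on the log2 scale without activated replicate 2). Sqle, squalene epoxidase, rose 3.45-fold, not called without activated replicate 2 or 3. Activated replicate 2 was the highest array for these 4 genes. On the export side, 1 of 7 sterol efflux genes was called: Apoe, which macrophages make in large amounts, fell by 1.99 ± 0.28, beside the fall of the macrophage markers. Of the lipid synthesis calls, 2 were left in the 15-array fit.

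Amino acid and nucleotide genes moved in part. Of 31 amino acid and integrated stress response genes 5 rose and 1 fell. Asns, asparagine synthetase, went from 7.28, 6.81 and 7.19 to 9.58, 9.58 and 9.82 (5.93-fold, adjusted p = 0.000419), the pseudokinase Trib3 from 6.87, 6.36 and 5.69 to 9.67, 9.22 and 9.41 (8.72-fold) and the transporter Slc43a1 rose 8.24-fold. Vldlr, the very low density lipoprotein receptor, was at least 12.2-fold higher. The 2 chains of the large neutral amino acid transporter were lower or near level, with Slc3a2 at -0.73 ± 0.10 and Slc7a5 at -0.53 ± 0.19 (adjusted p = 0.0773). Slc7a7 fell by 1.28 ± 0.28, not called without activated replicate 3. In serine and one-carbon metabolism 0 of 16 rose, and Mthfd1 (-1.53 ± 0.18) and Gcsh (-1.11 ± 0.12) fell. Of 27 nucleotide genes 4 rose and 3 fell. Those that rose were thymidine kinase Tk1 (8.34-fold), the ribonucleotide reductase subunits Rrm2 (9.15, 9.32 and 9.07, then 11.89, 11.62 and 11.94; 6.23-fold) and Rrm1 (3.09-fold) and deoxycytidine kinase Dck (2.18-fold). Dctd, which deaminates dCMP (-1.69 ± 0.21), the nucleoside diphosphate kinase Nme1 (-1.44 ± 0.18) and the purine synthesis enzyme Gart (-1.34 ± 0.17, -0.92 with the mean of its probe sets) fell.

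Division genes rose almost as a block. Of 72 genes of mitosis, spindle and kinetochore 67 rose (93.1%), 0 fell and the median difference was 3.18. Cenpf, a kinetochore protein, went from 6.68, 7.13 and 6.03 to 11.36, 11.34 and 11.48 (27.5-fold, adjusted p = 0.000192). Aspm, a spindle pole protein, went from 5.93, 6.32 and 7.00 to 11.22, 10.91 and 11.33 (26.6-fold). The checkpoint kinase Bub1b, with 1 resting array at the floor, was at least 26.4-fold higher, and separase, Espl1, 24.9-fold. Mki67, which marks cycling cells, was at 9.83, 10.23 and 9.54, then 14.00, 13.83 and 14.28 (18.0-fold, adjusted p = 9.64e-05). For these 5 genes each activated array exceeded each resting one by more than 3 log2 units. The 5 members without a call were Pttg1 (-0.63), Cenpt (-0.13), Bub3 (0.13), Smc4 (0.64) and Cit (0.88). In the 15-array fit 59 members were called.

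Of 49 replication genes 18 rose (36.7%), 0 fell, 31 were not called and the median was 0.68. Top2a, the topoisomerase that untangles replicated DNA, rose 17.2-fold (9.37, 9.72 and 9.43, then 13.61, 13.55 and 13.68; 2.29 on the log2 scale with the mean of probe sets). The polymerase subunit Pole rose 8.06-fold, Uhrf1, which copies DNA methylation, 7.36-fold, and the fork protein Clspn 7.27-fold. Of 36 G1 cyclins, kinases, inhibitors and E2F factors 12 rose and 0 fell. The repressive E2F8, gene E2f8, was at 6.03, 6.31 and the floor, then 9.84, 10.03 and 10.52 (at least 20.4-fold), E2f2 rose 7.09-fold, E2f7 4.46-fold and the activator E2f1 2.71-fold. Cyclin E genes rose, Ccne2 6.31-fold and Ccne1 2.38-fold (0.88 on the log2 scale and not called without probe sets that can cross-hybridise), while cyclin D genes were below 2-fold: Ccnd2 was at 13.52, 13.50 and 13.56, then 12.87, 13.23 and 12.84 (-0.55 ± 0.12) and Ccnd3 at -0.44 ± 0.12. Cdkn1b, which holds resting cells in G1, was at 0.39 ± 0.15 (adjusted p = 0.0912). DNA repair genes rose in 16 of 36 cases (44.4%), led by Neil3 (10.2-fold), Rad51ap1 (at least 8.82-fold), Rad54l (7.48-fold) and Rad54b (at least 6.13-fold). Of 31 DNA methylation and Polycomb genes 7 rose, among them the histone methyltransferase Nsd2 (5.02-fold) and the deacetylase Hdac7 (3.65-fold). The 15-array fit kept 8 replication, 7 G1, 9 repair and 3 chromatin calls.

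The promoters of Cenpf, Aspm and Bub1b are shown because they head the mitosis list and hold both elements known from promoters of G2 and M phase. Capitals mark the cell cycle homology region, TTTGAA or TTTAAA (reversed, TTCAAA or itself), and the CCAAT box (reversed, ATTGG). The RefSeq windows of GRCm38.p6 are chr1:189688037-189688336 on the minus strand for Cenpf, chr1:139454523-139454822 on the plus strand for Aspm and chr2:118597961-118598260 on the plus strand for Bub1b.
Cenpf: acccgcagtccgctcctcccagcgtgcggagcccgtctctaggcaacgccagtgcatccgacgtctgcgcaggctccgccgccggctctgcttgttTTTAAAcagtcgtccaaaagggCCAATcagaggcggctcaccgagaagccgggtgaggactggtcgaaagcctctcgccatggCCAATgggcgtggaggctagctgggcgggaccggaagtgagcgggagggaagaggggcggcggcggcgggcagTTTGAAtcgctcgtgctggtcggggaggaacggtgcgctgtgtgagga
Aspm: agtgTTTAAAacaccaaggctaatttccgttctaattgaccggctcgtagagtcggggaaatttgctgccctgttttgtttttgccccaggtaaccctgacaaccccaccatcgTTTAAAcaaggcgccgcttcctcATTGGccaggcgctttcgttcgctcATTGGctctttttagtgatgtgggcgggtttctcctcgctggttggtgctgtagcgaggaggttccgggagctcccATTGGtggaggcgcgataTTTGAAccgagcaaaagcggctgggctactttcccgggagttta
Bub1b: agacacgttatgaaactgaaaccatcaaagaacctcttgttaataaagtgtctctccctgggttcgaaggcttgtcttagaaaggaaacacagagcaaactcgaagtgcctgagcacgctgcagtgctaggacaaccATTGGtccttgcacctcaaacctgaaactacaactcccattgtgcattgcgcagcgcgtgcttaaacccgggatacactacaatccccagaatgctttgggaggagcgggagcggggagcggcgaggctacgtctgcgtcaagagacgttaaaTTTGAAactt
All 3 hold TTTGAA shortly after the start, and CCAAT boxes stand before it. In the windows of called mitosis members, 47 of 63 (74.6%) held TTTGAA or TTTAAA, 74.6% held CCAAT and 60.3% held both, against 27.6%, 37.4% and 10.7% of all promoter windows. Over all members on the array the shares were 73.9%, 71.0% and 58.0%. RefSeq windows were matched for 57 of the 67 called genes.

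**Figure D4:**
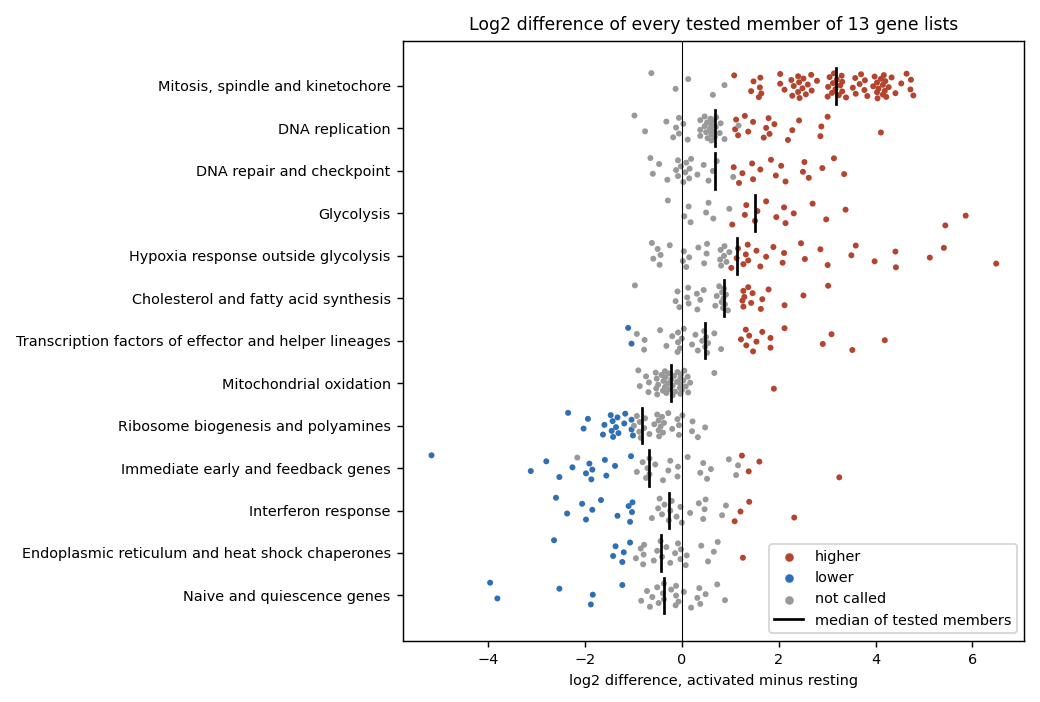
Log2 difference, activated minus resting, of each tested member of 13 gene lists, with red points for genes called higher, blue for genes called lower, grey for genes not called and a black bar at the list's median. Mitosis genes centre on 3.18, mitochondrial oxidation genes cluster near 0 and ribosome biogenesis genes lie below 0 with a median of -0.82.

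Known p53 target genes can be read here in cells without p53. Of 26 tested, 5 rose and 1 fell, with a median of 0.38. Cdkn1a, the CDK inhibitor p21, was low but went from 6.53, 6.22 and 6.68 to 7.37, 8.32 and 7.97 (2.66-fold, adjusted p = 0.0141). The others that rose were Ckap2 (8.59-fold) and Gtse1 (at least 3.19-fold), both also known as genes of mitosis, the stress gene Sesn2 (2.33-fold) and the apoptosome gene Apaf1 (2.19-fold). The exonuclease gene Aen fell by 1.17 ± 0.11 (-0.96 and not called with the mean of its probe sets). Gtse1 was not called without any 1 of the activated arrays, nor Sesn2 without resting replicate 3, activated replicate 2 or activated replicate 3. The count of higher members was 3 after quantile normalisation, without a filter, and without activated replicate 2 or 3, and Cdkn1a was not called without activated replicate 3 (adjusted p = 0.0538) or with the mean of its probe sets (0.71).

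Among 29 genes of the Bcl2 family and the death pathway 6 rose (20.7%, against 8.45% of all genes tested) and 0 fell. Only Bcl2l2 among them protects cells, and it rose 4.91-fold (6.58, 7.69 and 6.75, then 9.53, 9.01 and 9.36). The killers Bcl2l11, which encodes Bim, and Hrk rose 2.32-fold and at least 2.95-fold. The others that rose were Apaf1 and the caspase genes Casp1 and Casp4. Bcl2l11 was at 11.95, 12.09 and 11.78, then 13.12, 12.81 and 13.54. Bcl2 (-0.54 ± 0.22), Bcl2l1 (0.26 ± 0.17) and Mcl1 (-0.16 ± 0.12) overlapped between the groups.

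Of 44 ribosome biogenesis genes 17 fell (38.6%), 0 rose and 39 had a difference below 0, with a median of -0.82. Rrp9, which processes ribosomal RNA, went from 9.81, 9.97 and 10.02 to 7.85, 7.40 and 7.49 (5.11-fold lower, adjusted p = 0.000414). Bysl, a factor of the small subunit, went from 11.07, 11.25 and 10.98 to 9.32, 9.02 and 8.87 (4.09-fold lower), Ppan from 9.73, 9.44 and 9.56 to 7.88, 7.15 and 7.88 (3.84-fold) and Tsr1 fell 3.10-fold. For each of these 4 the groups were apart by more than 1 log2 unit. Myc, which drives such genes, was level, at 11.36, 11.49 and 11.24, then 11.17, 11.38 and 11.06 (-0.16 ± 0.12, adjusted p = 0.331). Of the 12 members of its network 3 rose, all antagonists that compete for the partner Max: Mxd3 (4.74-fold), Mxi1 (3.71-fold) and Mxd1 (3.19-fold). Of 18 translation factors 1 was called, the brake Eif4ebp1, which binds the cap-binding protein eIF4E. It went from 8.52, 8.30 and 8.46 to 11.53, 11.70 and 11.50 (8.87-fold, adjusted p = 5.94e-05). The 15-array fit kept 8 of the falls in number and all 3 Mxd family calls.

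Of 28 heat shock and endoplasmic reticulum chaperones and regulators 6 fell (21.4%), 21 were not called and 1 rose, the sensor Atf6 (2.40-fold). Hsph1, a large cytosolic chaperone, was at 12.72, 13.10 and 13.75 in resting and 10.22, 10.60 and 10.85 in activated cells (6.22-fold lower, adjusted p = 0.00126). The cochaperones Dnajb9 (-1.42 ± 0.22) and Dnajb1 (-1.23 ± 0.26) and the mitochondrial Hspe1 (-1.37 ± 0.20) fell too. Resting replicate 3 was the highest array for Hsph1, Dnajb1, Dnajb9 and Hspe1, and without it Dnajb1 was at -0.99 and not called, nor was it without activated replicate 2. Hspe1 was at -0.71 and not called without probe sets that can cross-hybridise. In the 15-array fit 2 of the list were called lower.

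Of 33 interferon response genes 11 fell (33.3%) and 4 rose (12.1%). The antiviral genes Ifit1 and Ifit3 went from 11.27, 11.09 and 11.11 to 9.26, 8.96 and 9.32 (3.94-fold lower, adjusted p = 0.000245) and from 11.21, 11.05 and 10.68 to 9.18, 8.83 and 8.77 (4.16-fold lower). The oligoadenylate synthetase relative Oasl2 fell 6.06-fold. Oas2, at least 5.17-fold lower, was scattered among activated arrays (floor, 5.77 and 7.43), and its call was lost without any 1 of 5 arrays. The 4 that rose are GTPases that interferon gamma is known to induce: Iigp1 went from 10.07, 10.74 and 10.74 to 12.81, 12.77 and 12.93 (5.00-fold, adjusted p = 0.000512), and Gbp6, Gbp3 and Igtp rose 2.63-fold, 2.31-fold and 2.14-fold. Their relatives Gbp2, Irgm1 and Ifi47, also on the list, were not called. In the 15-array fit none of the list was called in either direction.

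Markers of the naive and quiescent state were called lower in part. Of 28 tested 6 fell (21.4%) and 0 rose, with 20 below 0 and a median of -0.37. Of the 22 not called, 11 passed the adjusted p alone. Dtx1, a Notch pathway regulator that TCR signals without costimulation induce, went from 12.64, 12.51 and 12.38 to 8.92, 8.88 and 7.84 (15.6-fold lower, adjusted p = 0.000372; -2.35 with the mean of probe sets). Ccr9, which directs cells to the gut, went from 11.82, 12.13 and 12.60 to 8.63, 8.56 and 7.93 (14.1-fold lower; -2.71 with the mean). Ramp1 (-2.53 ± 0.25) and Atp1b1 (-1.88 ± 0.13) also fell. The factors and receptors most often used to define naive cells were not called. Lef1 was at 13.85, 13.52 and 13.73, then 13.71, 13.26 and 13.46. Ccr7 differed by -0.12 ± 0.11 and Foxo1 by -0.12 ± 0.13. Klf2, which keeps cells quiescent, differed by -0.72 ± 0.13 (adjusted p = 0.00907), short of 2-fold. Of the 25 Notch pathway genes Dtx3 (3.40-fold) and the ligand Jag2 (2.42-fold) rose and Dtx1 fell. The Jag2 call was lost without any 1 of 4 arrays.

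Of 32 homing receptors 4 rose (12.5%, against 8.45% of all genes tested) and 4 fell (12.5%, against 4.23%). The chemokine receptor of effector cells, Cxcr3, rose from 11.58, 11.40 and 10.90 to 12.83, 12.83 and 12.57 (2.74-fold, adjusted p = 0.0023), and the integrin chains Itga2 and Itgb3 rose 4.22-fold and 3.22-fold. Besides Ccr9, Ccr10 (at the floor on all activated arrays, at least 4.06-fold lower) and Gpr183, which guides cells to the T cell zone border, fell (2.84-fold, from 11.32, 10.96 and 11.27 to 9.79, 9.42 and 9.81). Cxcr6 fell 2.43-fold, and P2ry14 rose 3.70-fold, not called without activated replicate 2.

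Cytotoxic genes were unequal. Gzmb, granzyme B, rose from 8.10, 8.95 and 7.79 to 12.25, 13.77 and 12.96 (26.2-fold, adjusted p = 0.000848), and Gzma from 10.44, 10.71 and 9.97 to 11.72, 13.65 and 12.39 (4.65-fold, adjusted p = 0.0147, lost without resting replicate 3). Activated replicate 2 was highest for both. Perforin, Prf1, which granzymes need to enter a target cell, fell from 9.33, 9.44 and 9.35 to 7.22, 7.90 and 7.61 (3.48-fold lower), although not with the mean of its probe sets (-0.62, adjusted p = 0.076). Serpinb6b, a granzyme inhibitor, rose 3.67-fold. In all, 3 of 20 granule genes rose and 1 fell. Of 20 NK cell receptors found on T cells, Klrk1, which encodes NKG2D, rose 4.97-fold (9.18, 9.14 and 8.55, then 11.33, 11.01 and 11.48), Slamf7 rose 4.89-fold, and Klrg1, Klra8 and the adaptor Tyrobp fell. Without activated replicate 1 or 2 only 1 of these 3 was called lower, and Klrg1 was also lost without resting replicate 1 or activated replicate 3. Of 9 NK cell markers, Gzma was higher and Klra8 and Tyrobp were lower, with 7 below 0 and a median of -0.4. Their sum, which includes Gzma itself, was 9586 to 11132 on resting and 10345 to 19352 on activated arrays. It was highest on activated replicate 2, as Gzma was, so it is not separate from the Gzma rise. The part of NK cells in these values was not tested.

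Genes of the cytoskeleton and cell shape rose in 13 of 38 cases (34.2%) and fell in 1. Stmn1, which destabilises microtubules and is high in dividing cells, went from 11.17, 11.03 and 10.81 to 13.51, 13.26 and 13.53 (5.41-fold, adjusted p = 0.000106). The galectins Lgals3 (5.11-fold) and Lgals1 (3.49-fold) and annexin Anxa2 (4.76-fold) rose, Anxa2 not with the mean of its probe sets (0.95). Lgals1 was at 12.82, 12.31 and 12.66, then 14.48, 14.27 and 14.45. The tubulin Tuba4a fell 2.5-fold, and S100a4 did not differ beyond its spread (-0.01 ± 0.23). Among 24 Ly6 and other activation antigens 4 rose, including the transferrin receptor Tfrc (2.11-fold) and Plac8 (2.84-fold), and 3 fell, including Cd82 (-1.26 ± 0.09), Gpr83 (-1.54 ± 0.16) and Ly6d. Cd82 was at -0.75 with the mean of its probe sets, and Ly6d was lost without any 1 of 4 arrays. Without resting replicate 2 only 2 of that list were called higher, Tfrc not among them (0.98). Of 25 autophagy and lysosome genes Gabarapl1 (3.55-fold) and the kinase Ulk1 (2.20-fold) rose and Hexa fell 2.05-fold, the last 2 not called without resting replicate 1.

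Some genes had a probe set at the floor throughout one group. At the floor on all 3 resting arrays and at 200 or more on the linear scale on all 3 activated arrays were 12 genes: Ak4, Plod2, Vegfa, Prr36, Spag5, Psrc1, Ticrr, Cenpp, Dcn, Bst1, Fbxo44 and Sema4c. Spag5, Psrc1 and Cenpp serve the spindle or kinetochore and Ticrr starts DNA replication. The reverse pattern was seen in 2, the mitochondrial glutamyl-tRNA synthetase Ears2 (8.64, 8.68 and 8.88 in resting cells, at least 13.3-fold lower) and the complement gene C1qa. Other probe sets of these genes differed by less, at 0.70 for Ticrr, 3.49 for Plod2, 3.76 for Vegfa and -1.38 to -2.24 for Ears2, so the floor holds for the probe set read and not for every probe set of the gene. Hemgn, a nuclear protein of blood progenitors, nearly fitted the first pattern, at 5.45 on 1 resting array and the floor on the others, then 10.46, 9.68 and 10.23 (at least 31.5-fold).

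The T cell label was checked against marker genes. The 12 T cell markers tested summed to 97007 to 117579 on resting and 85904 to 88921 on activated arrays, and only Trat1, a TCR-associated membrane adaptor, was called (-2.29 ± 0.18). Markers of other cells differed between the groups. Of 20 macrophage and Kupffer cell markers 9 fell (45.0%), and the 23 on the array summed to 4200, 8974 and 8865 on resting and 1872, 2088 and 1431 on activated arrays. Lyz1, lysozyme, was at 8.51, 10.59 and 10.69 in resting cells, with 2 activated arrays at the floor (at least 21.5-fold lower), and Csf1r, the receptor for macrophage growth factor, at 9.74, 11.13 and 10.88, then 6.76, 7.37 and 7.11 (11.4-fold lower). Resting replicate 1 was the lowest resting array in each of them, and Timd4 was at the floor throughout. Falls of Apoe, Tyrobp, Slc40a1 and Cd5l went with these markers, and the part of such cells in them was not tested.

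**Figure D5:**
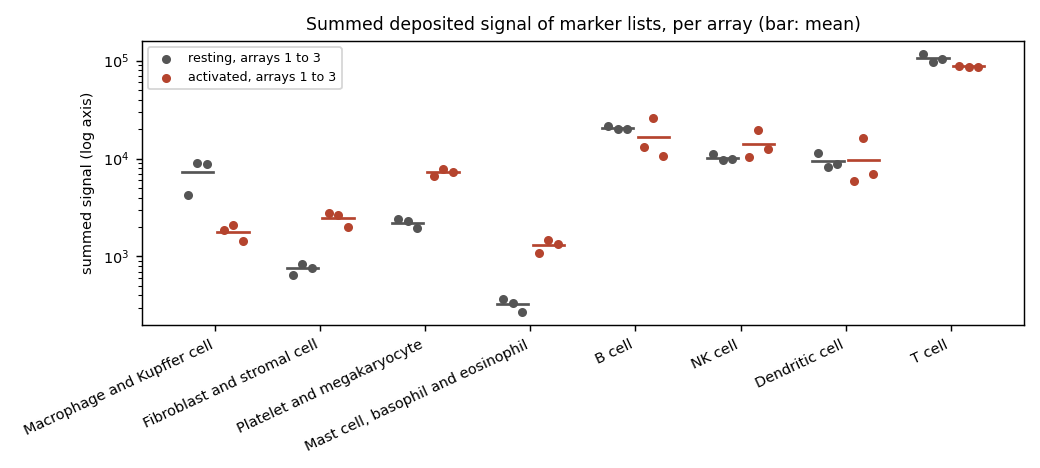
Summed linear signal of 8 marker lists on each array (log axis), with resting arrays in grey, activated arrays in red and a bar at each group's mean. Macrophage markers are lower and stromal, platelet and mast cell markers higher on the activated arrays. T cell markers sum to 97007 to 117579 on resting and, lower, to 85904 to 88921 on activated arrays. B cell, NK cell and dendritic markers overlap, with activated replicate 2 the highest. The NK cell sum includes Gzma, and the platelet sum includes Itgb3, which is also on the homing list.

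Stromal markers were higher in 5 of 11 cases, with Dcn, decorin, at the floor in resting cells and at 8.78, 8.35 and 8.13 in activated cells (at least 10.7-fold), while Sparc was at least 6.38-fold, the collagen gene Col3a1 at least 5.86-fold and Col1a2 4.16-fold higher, and Pdgfrb and Tagln were at the floor on all 6 arrays. Platelet markers, 2 of 5 higher, summed to 1945 to 2398 on resting and 6592 to 7729 on activated arrays. This sum includes Itgb3, the brighter of the 2 called, which is also on the homing list. Itgb3 was at 10.90, 10.89 and 10.55, then 12.44, 12.47 and 12.50. The other, Pf4, platelet factor 4, was at least 14.9-fold higher (2 resting arrays at the floor, the third at 6.58, then 8.93, 9.86 and 9.49). Gp9 was at the floor. Mast cell and basophil markers summed to 271 to 371 and 1094 to 1490, with 1 of 4 called, Cpa3, carboxypeptidase A3 (at least 18.1-fold higher), and with Siglecf and Hdc at the floor. B cell markers summed to 20009 to 21534 on resting and 10705 to 26190 on activated arrays with 1 of 16 called (Cr2, lower, not without any 1 of the activated arrays). Endothelial markers had 0 of 6 called and summed to 2536 to 3211 and 3359 to 3608, and hepatocyte markers had 0 of 3 called and summed to 283 to 451 and 457 to 530. Plasma cell markers were higher in 2 of 7 cases (Irf4 and Prdm1) and dendritic cell markers in 3 of 11 (Irf8, Batf3 and Itgax). Irf4, Prdm1, Irf8 and Batf3 were also on the list of effector and helper factors, and which cells gave these signals was not tested. Of 11 neutrophil markers 1 fell, S100a8 (at least 2.85-fold). In erythroid markers Car1 rose at least 4.61-fold and Alas2 fell at least 3.90-fold, Alas2 not called without resting replicate 1, activated replicate 1 or activated replicate 3.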

How the data were processed

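Expression was measured on oligonucleotide arrays, 1 per sample. Each deposited value is a linear intensity that the authors derived with MAS5 in Affymetrix Expression Console, per the submitters' processing notes. For the normal T cells no version is named in the sources used here. The array's 45101 probe sets comprised 34958 that carry 1 gene symbol, 932 that carry several and 9211 without any. After 64 controls were set aside, 34945 were used, and for each of 18193 genes the probe set of highest mean over the 15 arrays was kept. Values under 32 were set to 32, log2 was taken, and the 11902 genes at 100 or more on at least 3 of the 15 arrays were tested. Sample titles gave the groups.

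The 6 arrays were fitted with limma 3.58.1 (lmFit, and eBayes with a trend) in R 4.3.3, and calls needed both an adjusted p (Benjamini-Hochberg) under 0.05 and at least a 2-fold change. The fit was also run on simulated arrays with independent noise for each gene. That run held no effects shared by the genes of an array, and its outcome is not used here. Where a group has arrays at the floor, the fold is a lower bound. The number of arrays limits the precision, and no detection calls were used.

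Genes were described in 41 pathway and 13 marker lists (1410 genes, 1298 on the array). The members and lists were chosen with earlier results of these data known. Genes to name were drawn from the 12 largest changes each way without overlap, up to 6 called members per list (at most 4 per direction), a fixed panel, glycolytic isozymes, and genes at the floor in one group and at 200 or more throughout the other. Not all of these are described above. Left out were the large changes of Endou (4.69), Prag1 (-3.72) and Lbp (-3.66), and list members such as Cd93 and Hells. Several panel genes without a call were left out too, such as Eomes (-0.78) and Tnf (-0.70). Ier3, Fosl2, Rgs2, Cxcr6, Gbp2, Gbp3, Igtp, Irgm1, Ifi47, Apaf1, Casp1, Dck, Bst1, Fbxo44, Sema4c and the mitosis genes not called were named after their values were seen. Promoter windows came from RefSeq (GRCm38.p6). Alternatives covered the floor, offset, filter, normalisation, probe set choice, model, threshold, replicate block and leaving out each array. The deleted p53 gene is not analysed here.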

Additional observations from a re-analysis of the deposited data

How the results depend on the processing

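The number of genes called stayed within 1.5 times the reported 1510 under each alternative tried except a pair. With all 15 arrays in 1 fit, 397 genes were called, 295 higher and 102 lower, and all 397 were among the 1510 and in the same direction. The differences are the same in that fit, with a median of 0.019 in both. Its spread is estimated from the lymphoma arrays too, so the lost calls failed the adjusted p alone. By the adjusted p alone, without the 2-fold limit, 3678 genes were called, 1830 higher and 1848 lower. Leaving out each array in turn gave 1267 to 1505 called, 834 to 1001 higher and 433 to 519 lower. Quantile normalisation gave 807 higher and 620 lower (56.6% higher, against 66.6%) and moved the median difference from 0.019 to -0.052. With the replicate number as a block, 1431 genes were called, 946 higher and 485 lower, and the calls of Tnfsf11 and Jag2 were lost. The deviations of same-numbered arrays from their group means were close to uncorrelated (r = -0.0112, 0.0495 and -0.0072 across genes). The labels do not say whether the numbers pair the samples, and with 3 arrays per group these values cannot exclude it. Among the named genes no called value changed sign under any alternative that tested it. All calls shared between the main fit and an alternative had the same direction. Other calls that an alternative lost were not checked for sign. The 3 arrays per group, and signals near the floor, limit what can be told for dim genes.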
